A study of Mus musculus with 14 samples.

Results

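The genes described here are 10 immediate early genes, *Fos*, *Jun*, *Junb*, *Jund*, *Egr1*, *Ier2*, *Ier3*, *Ier5*, *Atf3* and *Mcl1*, chosen by name from the 52459 genes of the count tables. The cells were E14Tg2a mouse embryonic stem cells (mESCs), cultured with serum and LIF on gelatin, either wild type (WT) or carrying METTL14 R255K, a knock-in in which lysine takes the place of an arginine of the m6A methyltransferase subunit METTL14. The knock-in colonies were picked as single colonies after CRISPR-Cas9 editing, and how many of them stand behind the sequenced R255K cells was not given in the sources used here. RNA was sequenced from both genotypes at 0, 4 and 8 h of 5 µg/ml actinomycin D, which blocks transcription, with 1 library per genotype and time. MeRIP-seq, in which RNA fragments carrying N6-methyladenosine (m6A) are enriched with an antibody, was done with 2 IP and 2 input libraries per genotype and gave 1 peak list per genotype.

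With 1 library per genotype and time, differences below carry no replicate check, and no test between the genotypes was run. The 95% intervals cover counting error only. The 6 libraries held between 13812160 and 18813640 counts, and levels are given as CPM, counts relative to the summed counts of the library, or per length of exon as well (FPKM) where genes are compared with each other. All 10 markers of mESCs were detected, with FPKM between 32.4 and 878 in the 0 h libraries. *Mettl14* had 681 counts in WT and 299 in R255K cells at 0 h, and the edited base itself cannot be seen in counts.

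Immediate early genes are transcribed within minutes of a growth factor or stress signal, without new protein synthesis, and their transcripts are among the shortest-lived in the cell. *Fos*, *Jun*, *Junb* and *Jund* encode subunits of the AP-1 transcription factor, *Egr1* a zinc finger transcription factor, and *Atf3* a stress-induced relative of the AP-1 proteins. *Ier2*, *Ier3* and *Ier5* encode small proteins induced early after stimulation, and *Mcl1* encodes an anti-apoptotic member of the BCL2 family whose mRNA and protein both turn over fast. Rapid decay of many such mRNAs is linked to AU-rich elements, repeats of ATTTA in the 3' UTR, and m6A, which is placed at GGAC and related motifs, often close to the stop codon, is a second mark connected with mRNA decay.

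ATTTA was found in the longest annotated 3' UTR of 9 of the 10 genes, against 68.7% of the 10341 genes with a 3' UTR that passed the filter on low levels described with the decay below. *Mcl1* carried 8 copies, *Ier3* 5, *Fos* and *Jun* 4 each, *Atf3* 3, *Junb*, *Egr1* and *Ier5* 2 each, *Jund* 1 and *Ier2* 0. The longer form TTATTTATT occurred once, in *Fos*, and was present in 7.73% of those 3' UTRs. The stretches of 30 bases with the most ATTTA (capitals), read from the mm10 genome in the direction of the gene, are shown for the 4 genes with the most copies and for *Jund*, the gene with the slowest loss at 4 h.
Fos, chr12:85477098-85477127 (+): tattgtgttttcaATTTATTTAttaagatg
Jun, chr4:95049204-95049233 (-): ATTTAtaatcataggaaagATTTAgtaatt
Ier3, chr17:35822480-35822509 (+): gtgtctaattaatATTTAtgtATTTAtgta
Mcl1, chr3:95662590-95662619 (+): ATTTAtccttgatcatagtttgcttATTTA
Jund, chr8:70700358-70700387 (+): ccgattccgccctATTTAtgtttctactcg

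GGAC lay within 100 bp of the summit of all 12 WT m6A peaks on exons of the 10 genes, on the strand of the gene, against 79.4% of 13005 exonic WT summits. GGACT lay there in 7 of the 12, against 39.3%. For the 5 genes with a summit in the 3' UTR of a peak that overlapped one in R255K cells, the GGACT nearest to the summit (capitals, together with any other GGAC) is shown with its flanks.
Jun, chr4:95050125-95050154 (-): gggtacacaagatGGACTgggttgcgacct
Jund, chr8:70700094-70700123 (+): ggggcgcatgcgcGGACTagctgcggtggg
Ier2, chr8:84661650-84661679 (-): GGACccgccctagGGACTgggaagtgactt
Mcl1, chr3:95660893-95660922 (+): tatttatgaaggtGGACTtgaagctgccca
Atf3, chr1:191170632-191170661 (-): ttcaaagggtgtaGGACTccatactcagtg
The coding sequence within 60 bases of the WT summit is shown for *Fos*, whose peak had no R255K counterpart, and for *Junb*, whose peak had one, with GGAC in capitals.
Fos, chr12:85476090-85476210 (+): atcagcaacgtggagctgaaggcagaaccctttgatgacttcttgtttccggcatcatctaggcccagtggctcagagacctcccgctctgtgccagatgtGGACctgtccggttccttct
Junb, chr8:84978017-84978137 (-): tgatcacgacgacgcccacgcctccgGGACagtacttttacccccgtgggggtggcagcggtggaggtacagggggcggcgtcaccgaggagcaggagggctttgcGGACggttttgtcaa

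In untreated WT cells the 10 genes together held 946 CPM, and *Mcl1* and *Ier2* made up most of it. By FPKM, *Ier2* stood highest (200.4 in WT and 204 in R255K cells), followed by *Mcl1* (149 and 180). *Jund* (28.3 and 29.2) and *Junb* (26.7 and 23.5) lay in the middle. The remaining genes were lower, from 3.55 for *Ier3* to 0.366 for *Fos* in WT cells. After 4 and 8 h of actinomycin D the sum of the 10 genes was 133 and 57.3 CPM in WT cells, and it was 1122, 345 and 193 CPM in R255K cells at 0, 4 and 8 h.

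For comparisons over many genes, a gene had to reach 1 FPKM at 0 h, averaged over the genotypes, which 11869 genes did. *Fos* (mean FPKM 0.862) did not pass and the other 9 genes did. In WT cells 8 of these 9 were at 25% or less of their 0 h level after 4 h, *Jund* being the exception, against 13.5% of all genes that passed. In R255K cells 7 of the 9 were, *Jund* and *Mcl1* being the exceptions, against 4.15% of all genes. The median of the 9 genes was 8.18% left at 4 h in WT and 13.3% in R255K cells, against 88.9% and 96.2% over all genes.

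**Figure D1:**
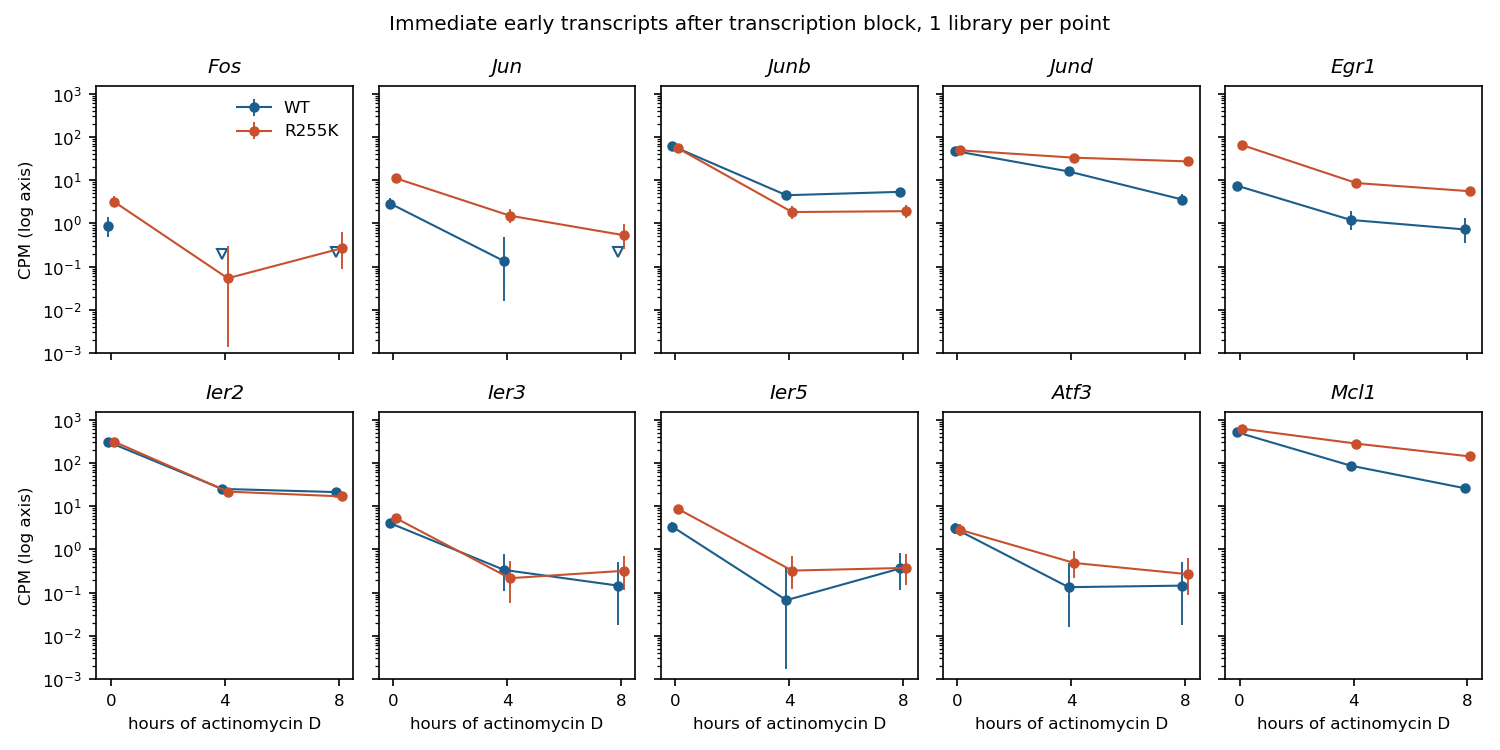
CPM (log axis) of each immediate early gene at 0, 4 and 8 h of actinomycin D in WT (blue) and R255K (orange) cells, 1 library per point, with 95% counting intervals. Open triangles mark a count of 0 and stand at the level of 3 counts. Per summed counts, the lines of *Jund* and *Mcl1* separate between the genotypes with time while those of *Ier2* stay together. Relative to *Gapdh* the direction of *Jund* and *Mcl1* turns at 4 h.

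*Jund*, which among the AP-1 genes is the one known for steady expression without a stimulus (chromosome 8, 70698949 to 70700616, plus strand, a single exon), had the slowest loss at 4 h in both genotypes, and at 8 h in R255K cells. The WT libraries held 824, 238 and 49 of its counts at 0, 4 and 8 h, and the R255K libraries 763, 614 and 509. In WT cells 33.6% (29.0 to 38.9) was left at 4 h and 7.50% (5.51 to 10.0) at 8 h, and in R255K cells 67.7% (60.8 to 75.4) and 55.5% (49.5 to 62.1). The share left was thus 2.01 times as large in R255K cells at 4 h (1.68 to 2.42) and 7.39 times at 8 h (5.40 to 10.3), and 397 of the 11869 genes had a larger ratio at 8 h. The genotypes started at the same level within counting error and lay apart at both later times. *Jund* shares exon bases with *Gm11175* on the opposite strand, and whether the counting used strand was not given in the sources used here.

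*Mcl1* (chromosome 3, 95658788 to 95663176, plus strand) was the other gene with a slower loss in R255K cells. In the same order WT cells gave 8904, 1289 and 358 counts, R255K cells 9605, 5166 and 2642, so counting error was small. At 4 h 16.8% (15.9 to 17.9) was left in WT and 45.2% (43.7 to 46.8) in R255K cells, a ratio of 2.69 (2.51 to 2.88). At 8 h the shares were 5.07% (4.55 to 5.64) and 22.9% (21.9 to 23.9), a ratio of 4.51 (4.02 to 5.07). Between 4 and 8 h the WT level changed by a factor of 0.301 (0.267 to 0.339) and the R255K level by a factor of 0.506 (0.482 to 0.530), so that *Mcl1* continued downward over both intervals in each genotype. Relative to *Gapdh*, whose own counts ran from 242 to 2357 over the 6 libraries, the ratios at 4 h of *Jund* and *Mcl1* turned direction, to 0.285 and 0.380.

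*Junb* (chromosome 8, 84974484 to 84978718, minus strand) went the other way. WT cells gave 1069, 67 and 74 counts, R255K cells 845, 34 and 36. The share left was 7.29% (5.61 to 9.34) in WT and 3.38% (2.33 to 4.77) in R255K cells at 4 h, a ratio of 0.464 (0.295 to 0.719). At 8 h it was 8.73% (6.81 to 11.1) and 3.54% (2.46 to 4.94), a ratio of 0.406 (0.262 to 0.619). Within each genotype the level at 8 h was that at 4 h within counting error, with factors of 1.20 (0.849 to 1.69) and 1.05 (0.637 to 1.72), so no further loss after 4 h was detectable at this depth. Exon bases of *Junb* overlap *Prdx2* on the opposite strand, and the exons counted run to 84974484, past 84976910, where the GENCODE gene ends. Whether the counting used strand was not given, so how many of the counts left at 4 and 8 h are *Junb* RNA is unknown.

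*Jun* itself (chromosome 4, 95049034 to 95052222, minus strand, a single exon that overlaps *Junos* on the other strand) gave 50, 2 and 0 counts in the WT libraries, against 172, 28 and 10 for R255K. At 4 h 4.65% (0.548 to 17.7) was left in WT and 13.7% (8.84 to 20.5) in R255K cells, a ratio of 2.94 whose interval runs from 0.697 to 26.3. The count of 0 at 8 h in WT cells has an interval up to 9.66% of the 0 h level. Set to 3 counts it stands at 7.57%, and both values are above the 4.83% measured in R255K cells. *Fos* (chromosome 12, 85473890 to 85477273, plus strand), the usual partner of *Jun* in AP-1, gave 15, 0 and 0 counts for WT against 50, 1 and 5 for R255K. For both genes the depth after actinomycin D was too low to compare decay between the genotypes.

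**Figure D2:**
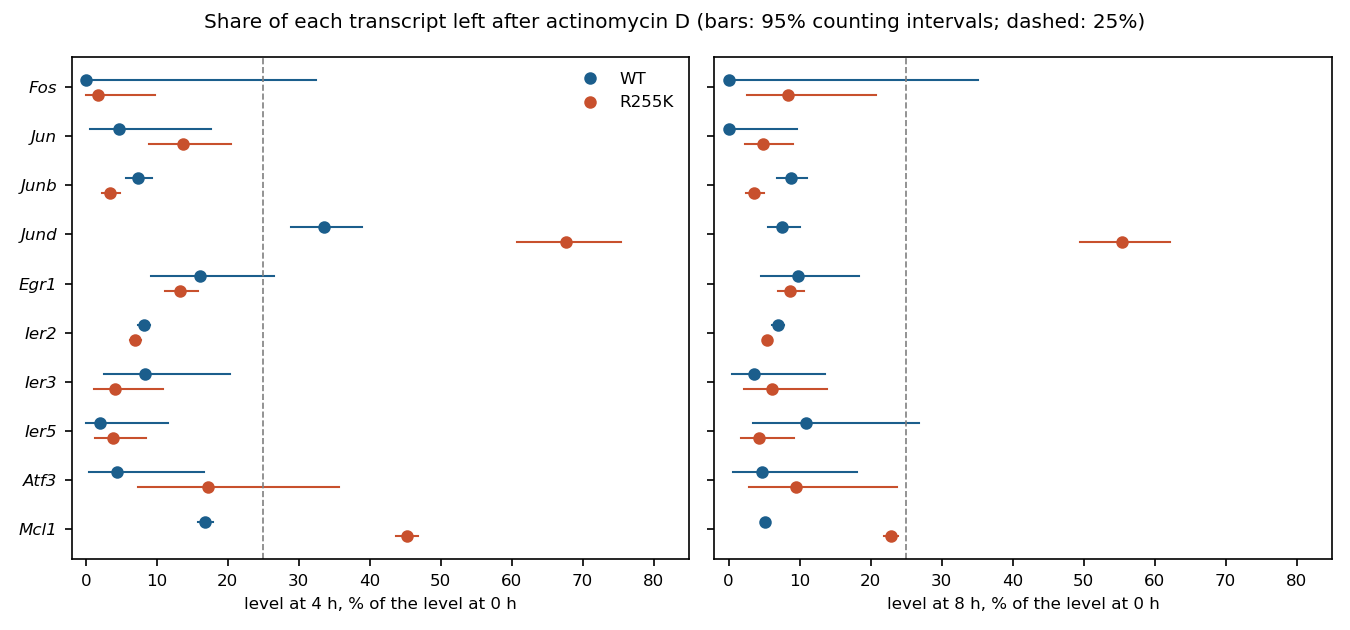
Level at 4 h (left) and 8 h (right) as a percentage of the 0 h level for each gene in WT (blue) and R255K (orange) cells, with 95% counting intervals and a dashed line at 25%. At 4 h *Jund* lies right of the line in both genotypes and *Mcl1* only in R255K cells, and at 8 h *Jund* in R255K cells is the only point beyond it.

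*Ier2* (chromosome 8, 84661331 to 84662852, minus strand) had nearly the same share left in both genotypes. Its WT counts were 5316, 374 and 291, its R255K counts 4856, 402 and 315. The share left at 4 h was 8.18% (7.35 to 9.09) in WT and 6.96% (6.27 to 7.71) in R255K cells, a ratio of 0.851 (0.733 to 0.987), and the ratio at 8 h was 0.781 (0.660 to 0.923). Both intervals lie below 1, but the ratios are under 1.5-fold, and relative to ribosomal protein genes the ratio at 4 h turned to 1.12 and that of the half-lives to 1.04. *Ier3* (chromosome 17, 35821684 to 35822923) gave WT counts of 70, 5 and 2 with R255K counts of 82, 4 and 6, and *Ier5* (chromosome 1, 155096361 to 155099636) gave 58, 1 and 5 for WT with 134, 6 and 7 for R255K. With so few counts left, the interval of the ratio at 4 h ran from 0.0944 to 2.40 for *Ier3* and from 0.219 to 87.8 for *Ier5*. Both genes were under 25% of their 0 h level at 4 and 8 h in each genotype.

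*Atf3* (chromosome 1, 191170296 to 191218039, minus strand) gave 53, 2 and 2 counts for WT, 44, 9 and 5 for R255K. It was left at 4.39% (0.518 to 16.7) in WT and 17.2% (7.38 to 35.7) in R255K cells at 4 h, a ratio of 3.92 (0.745 to 38.6) that is not distinguishable from 1 at this depth. *Egr1* (chromosome 18, 34859823 to 34864984, plus strand) gave 130, 18 and 10 counts for WT, 1004, 159 and 104 for R255K. Its share left was 16.1% (9.25 to 26.5) and 13.3% (11.2 to 15.8) at 4 h, and 9.71% (4.55 to 18.4) and 8.61% (6.97 to 10.5) at 8 h. The ratios, 0.827 (0.486 to 1.48) and 0.887 (0.448 to 1.95), do not differ from 1 beyond counting error and allow a difference of up to about 2-fold in either direction.

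Calls over all genes set counts under 3 to 3. On that scale the share left at 4 h was over 1.5 times as large in R255K cells for 4 of the 9 genes (*Jun*, *Jund*, *Atf3* and *Mcl1*), against 31.7% of all genes. It was under 1/1.5 for 3 (*Junb*, *Ier3* and *Ier5*), against 6.45%. *Ier5* fell under this limit only through the floor of 3 counts, since its ratio as counted was 1.88. At 8 h the ratio was over 1.5 for 2 genes (*Jund* and *Mcl1*) against 44.2%, and under 1/1.5 for 3 (*Jun*, *Junb* and *Ier5*) against 9.39%. *Jun* was among them only through the floor, because its WT count was 0. Its 0.638 is the value at 3 counts, and the interval of the ratio as counted starts at 0.412. The median ratio of the 9 genes was 0.851 at 4 h and 0.887 at 8 h, beside 1.13 and 1.33 over all genes.

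The decay rate was taken as the mean of the rates from 0 to 4 h and from 0 to 8 h. For *Jund* the half-life was then 2.32 h (WT) and 8.09 h (R255K), a ratio of 3.48 (2.79 to 4.35). For *Mcl1* it was 1.69 and 3.62 h, a ratio of 2.14 (2.06 to 2.22). These 2 of 9 genes had a half-life over 1.5 times as long in R255K cells, against 68.8% of the 5542 genes that decayed in both genotypes, whose median ratio was 1.98. None (0) of the 9 had a half-life under 1/1.5, against 5.92% of all such genes. *Junb* came nearest, with 1.44 and 1.10 h and a ratio of 0.759 (0.683 to 0.844). The half-life ratio divides 2 decay rates, so among slowly decaying genes, with rates near 0, a small difference gives a large ratio. The 68.8% is therefore not a background of genes that decay as fast as these 9. *Ier2* had 1.44 and 1.34 h, *Egr1* 1.85 and 1.71 h, and *Ier5* 1.41 and 1.14 h. *Jun* had 1.40 and 1.58 h, *Ier3* 1.41 and 1.21 h, and *Atf3* 1.37 and 1.89 h. The WT half-lives of the 9 genes thus lay between 1.37 and 2.32 h, under the median of all decaying genes (4.46 h), and in R255K cells 7 of the 9 stayed under 2 h while the median of all decaying genes was 10.1 h. For the 4 genes with under 3 counts in a treated library (*Jun*, *Ier3*, *Ier5* and *Atf3*), half-lives depend on the floor of 3 counts. The 2 rates behind each half-life differed. From 0 to 4 h alone and 0 to 8 h alone, WT *Junb* gave 1.06 and 2.27 h, and WT *Ier2* 1.11 and 2.07 h. WT *Jund* went the other way, with 2.54 and 2.14 h. The half-lives are thus averages over a loss that was not of constant rate.

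**Figure D3:**
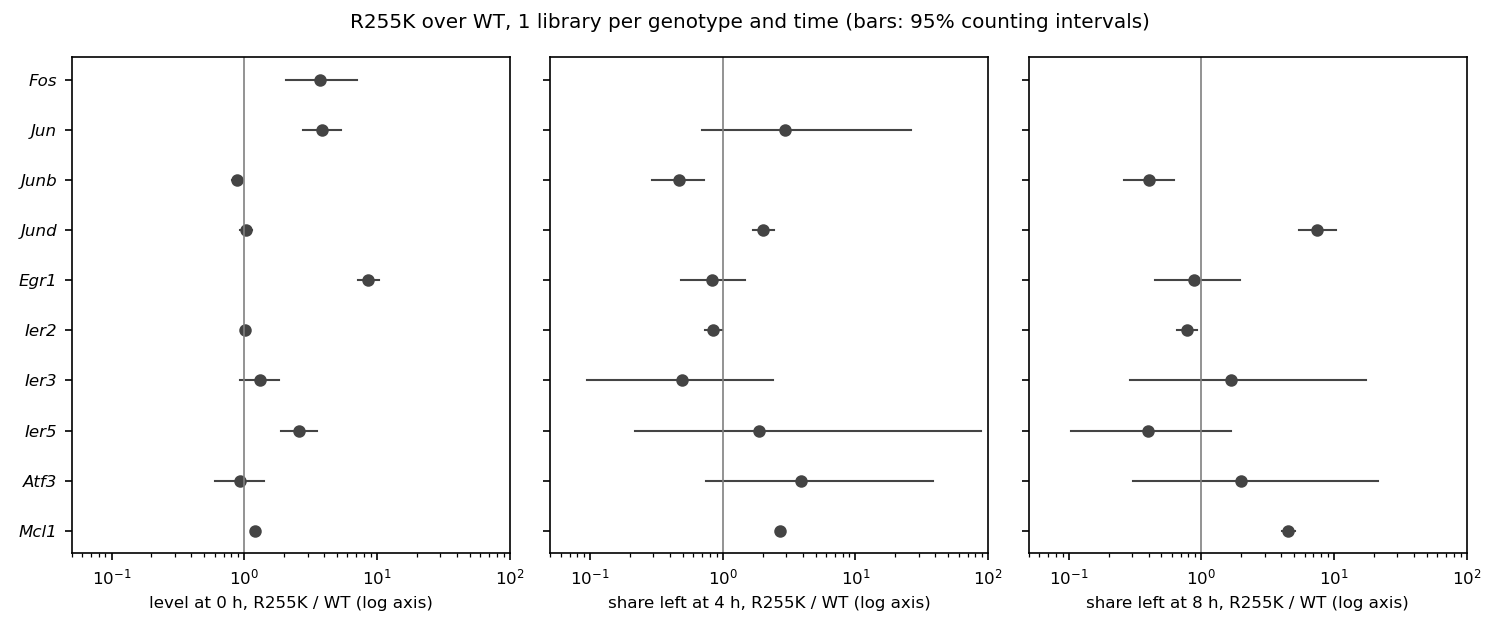
R255K over WT ratio (log axis) of the level at 0 h and of the share left at 4 and 8 h for each gene, with 95% counting intervals. Per summed counts, the whole intervals of *Egr1*, *Jun*, *Fos*, *Ier5* and *Mcl1* lie right of 1 at 0 h, and that of *Junb* left of it. At 4 and 8 h those of *Jund* and *Mcl1* lie right of 1 (relative to *Gapdh* they turn at 4 h). Those of *Junb* and *Ier2* lie left of 1 (relative to ribosomal protein genes *Ier2* turns at 4 h). The other intervals drawn include 1, and points that would divide by a count of 0 are left out.

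Before actinomycin D, *Egr1* differed most of the 10 genes between the genotypes. It had 130 counts (7.46 CPM) in WT and 1004 (64.2 CPM) in R255K cells, 8.61 times higher (7.16 to 10.4), and only 96 of the 11869 genes had a larger ratio. *Jun* was 3.83 times higher (2.78 to 5.36), at 2.87 and 11.0 CPM, and *Ier5* was 2.57 times higher (1.88 to 3.57), at 3.33 and 8.57 CPM. *Fos*, below the filter, was 3.71 times higher (2.05 to 7.12), at 0.861 and 3.20 CPM. Of the 9 genes that passed, *Egr1*, *Jun* and *Ier5* were over 2 times higher in R255K cells, against 10.0% of all genes, and none (0) was over 2 times lower, against 9.76%. *Jun* passed the filter only through its R255K level, at 0.900 FPKM in WT and 3.45 in R255K cells, and *Ier5* was at 1.02 FPKM in WT cells. The count of genes higher in R255K cells thus depends in part on the filter. Relative to *Gapdh* all 9 were over 2 times higher. That scaling also moved the median log2 ratio over all genes from 0.06 to 1.49, itself over 2-fold. With 1 FPKM added to each level, 2 genes stayed over 2 times higher, *Egr1* (5.75) and *Jun* (2.34), and *Ier5* was at 1.79.

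The 2 most abundant genes differed little at 0 h, with ratios of 1.02 (0.979 to 1.06) for *Ier2* and 1.20 (1.17 to 1.24) for *Mcl1*. *Jund* was at 1.03 (0.934 to 1.14), *Junb* at 0.881 (0.804 to 0.965), *Ier3* at 1.31 (0.937 to 1.82) and *Atf3* at 0.925 (0.606 to 1.41). The higher level of *Egr1* in R255K cells was also present after the block, 7.12 times at 4 h (4.36 to 12.3) and 7.64 times at 8 h (3.99 to 16.4). For *Jund* the R255K level was 2.08 times that of WT at 4 h and 7.63 times at 8 h, and for *Mcl1* 3.23 and 5.42 times.

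Markers of other cell types also differed at 0 h. The summed level of 4 trophoblast markers was 2.58 CPM in WT and 13.4 CPM in R255K cells, that of 5 fibroblast markers 5.34 and 27.2 CPM, that of 3 neural markers 78.8 and 21.7 CPM, and that of 4 primitive endoderm markers 19.8 and 17.3 CPM. Of the trophoblast markers 1 was at 0 in WT and 0 were in R255K cells, and of the fibroblast markers 2 and 1 were. The summed level of the 10 mESC markers was 5946 and 4640 CPM. Their part in the higher *Egr1*, *Jun*, *Fos* and *Ier5* was not tested, and in bulk RNA more RNA per cell and more cells of a type cannot be told apart.

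Of the genes that passed the filter, 57.4% had a WT m6A peak on an exon, and all 9 immediate early genes did. With *Fos* included, the WT list held 12 peaks on the 10 genes and the R255K list held 9 peaks on 7 of them. The fold enrichment is that of IP over local background at the summit as deposited, and the read depth behind it is unknown. Of the 12 WT peaks, 4 had no overlapping R255K peak, against 47.9% of the 13870 exonic WT peaks. They were the only peaks of *Fos*, *Egr1* and *Ier3*. Among the 9 genes that passed the filter 2 had no R255K counterpart to any WT peak (*Egr1* and *Ier3*), against 31.5% of the genes with a WT peak.

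The peaks without an R255K counterpart were narrower or weaker by q than most of the kept ones. They were 215 to 1332 bp wide, with a −log10 q of 5.67 to 41.0, and the kept peaks were 633 to 2392 bp wide, with a −log10 q of 19.4 to 189.6. The *Fos* peak (85476041 to 85476258, coding sequence) was enriched 5.98-fold. *Ier3* had a peak at 35822223 to 35822534 with its summit 72 bp past the stop codon and a fold enrichment of 10.6. *Egr1* had a strong and a weak peak, with fold enrichments of 8.12 (34862778 to 34864109) and 2.75 (34861556 to 34861770), both with the summit in the coding sequence. *Egr1* thus had no R255K peak while its RNA at 0 h was 8.61 times higher in R255K cells. The input depth of the MeRIP libraries is not in the peak lists, so for each of these 4 peaks less m6A and a failure to detect the peak cannot be told apart. GGACT lay within 100 bp of the summit in 0 of these 4 peaks and in 7 of the 8 kept peaks, all but that of *Junb*. Over all exonic WT peaks the shares were 30.4% of those without an R255K counterpart and 47.3% of those with one.

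Where peaks were kept, the enrichment in R255K cells was lower on some genes and not on others. Over all exonic peaks the median was 6.17 in the WT list and 5.50 in the R255K list. The highest enrichment of the 10 genes was on *Jun*, at 21.2 in WT and 16.6 in R255K cells, over a peak of 2392 bp that covers most of the gene. Its −log10 q went the other way, from 189.6 to 197.9. *Ier5* had 14.7 and 12.0, *Ier2* 6.38 and 5.74, and *Junb* 5.64 and 4.49. The widest gap was on *Atf3*, where a WT peak of 938 bp with 8.22 was overlapped over 43.9% of its length by an R255K peak with 2.88 and a −log10 q of 4.74. *Jund* had a higher value in R255K cells (5.55 and 6.04), with summits at 70700088 and 70700087, 5 and 4 bp past the stop codon. *Mcl1* had a peak in the 3' UTR at 4.06 in WT and 5.08 in R255K cells, and a coding peak at 2.69 in WT that was overlapped by 2 R255K peaks, at 2.60 and 2.91. No replicate values stand behind these enrichments, so the error of their differences is unknown.

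**Figure D4:**
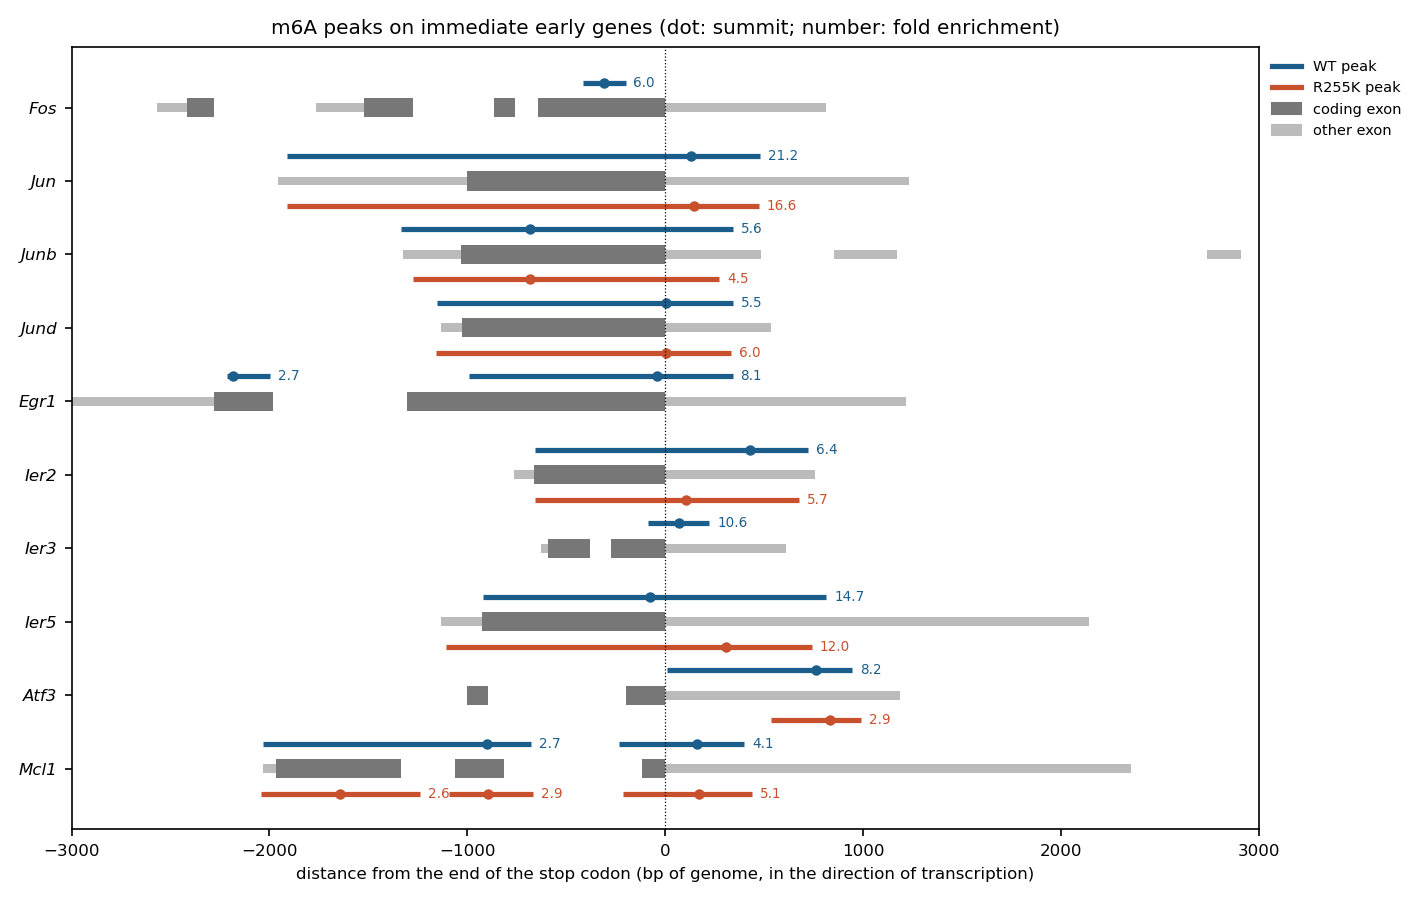
Position of the m6A peaks on the 10 genes in WT (blue, above each gene) and R255K (orange, below) cells, in bp of genome from the end of the stop codon, with dots at the summits and the fold enrichment beside each peak. *Fos*, *Egr1* and *Ier3* have no R255K peak, and the part of *Atf3* more than 3000 bp upstream is not drawn.

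Set beside the decay, *Jund* and *Mcl1*, the genes with over 1.5 times as large a share left in R255K cells at 8 h, had an R255K counterpart to every WT peak. So did *Jun*, *Junb*, *Ier2*, *Ier5* and *Atf3*. Of these, *Junb* had a ratio of the share left at 4 h of 0.464 (0.295 to 0.719) and *Ier2* of 0.851 (0.733 to 0.987). *Egr1* and *Ier3*, which had no R255K counterpart, gave ratios of the share left at 4 h of 0.827 (0.486 to 1.48) and 0.494 (0.0944 to 2.40), intervals that include both a smaller and a larger share, and *Fos* could not be compared. A relation between peaks and decay over the 10 genes was not tested.

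Of the 12 WT summits 6 lay in coding sequence and 6 in the 3' UTR, and 6 of the 12 were within 200 bp of the end of the stop codon. In the R255K list 3 of 9 summits lay in coding sequence and 6 in the 3' UTR. The summit on *Ier5* moved from the coding sequence, 78 bp before the end of the stop codon, to 307 bp past it in R255K cells, within peaks of 1735 and 1853 bp. The promoter sequences from RefSeq (GRCm38.p6, 250 bases before to 50 after the start) covered 8 of the 10 genes, all but *Egr1* and *Ier2*. None (0) of the 8 held a CArG box, the CRE TGACGTCA, the AP-1 sites TGACTCA or TGAGTCA, or the EGR site GCGGGGGCG on either strand. These motifs were found in 1.63%, 1.79%, 5.20% and 2.91% of 32851 promoters. Shares this low make 0 of 8 promoters uninformative about these genes, and sequence outside this window was not searched.

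Further immediate early genes, 33 in the tables and 23 past the filter, were also short-lived. At 25% or less after 4 h were 20 of the 23 in WT and 20 in R255K cells, against 13.5% and 4.15% of all genes. Their median share left was 6.61% and 16.6%. The share left at 4 h was over 1.5 times as large in R255K cells for 17 of the 23, against 31.7% of all genes. It was under 1/1.5 for 3, against 6.45%. The median ratio was 1.90, beside 0.851 for the 9 genes above. *Myc*, the growth-promoting transcription factor and the most abundant of them by FPKM, had 3.51% left in WT and 5.47% in R255K cells. *Sgk1*, a serum-induced kinase, had 5.12% and 12.2%, and *Klf10*, a TGFβ-inducible zinc finger factor, 5.29% and 16.6%. *Klf10* and *Dusp1*, a phosphatase of MAP kinases, had the largest ratios (3.14 and 3.13). *Cyr61*, which encodes a matricellular protein, had a ratio of 0.532. That ratio rests on 4 WT and 12 R255K counts at 4 h and has no interval here, so no direction is read from it. *Dusp2*, another phosphatase of MAP kinases, was one of the 3 under 1/1.5, but both treated WT libraries held 0 of its counts. Its ratio of 0.490 is the value with these set to 3 and gives no direction. At 0 h 5 of the 23 were over 2 times higher in R255K cells (*Fosl1*, *Dusp2*, *Cyr61*, *Ctgf* and *Plk2*), against 10.0% of all genes. Of these, *Fosl1* and *Dusp2* passed the filter only through their R255K level. *Bhlhe40* was the 1 gene over 2 times lower, against 9.76%. *Cyr61* was 4.54 times and *Ctgf* 5.84 times higher. WT peaks lay on exons of 20 of the 23, against 57.4% of all genes. Of their 36 WT peaks 9 had no R255K counterpart, against 47.9% of all exonic WT peaks.

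Half-lives of the 23 further genes were over 1.5 times as long in R255K cells for 9, against 68.8% of all decaying genes. They were under 1/1.5 for 1, *Dusp2*, against 5.92%. *Dusp2* is there only through its WT counts of 0 set to 3. At 8 h the share left was over 1.5 times as large for 16 of the 23, against 44.2% of all genes. The 9 genes described above had 2, 0 and 2 in the same order, and the lists were not compared by a test. Against all genes, the 23 further genes lay above by the share left and below by the half-life. The median WT half-life was 1.26 h for the 23 genes and 4.46 h for all decaying genes. The half-life ratio divides 2 decay rates and grows large where the R255K rate is near 0. The 68.8% is therefore not a background of genes that decay as fast.

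Of 18 kinases and promoter factors upstream of immediate early genes 3 were at 25% or less at 4 h in WT cells (*Mkl1*, *Mkl2* and *Creb1*), against 13.5% of all genes, and 1 in R255K cells (*Mkl1*), against 4.15%. Their median share left in WT cells was 85.5%, beside 88.9% over all genes. At 0 h 0 of the 18 were over 2 times higher in R255K cells, against 10.0% of all genes. Over 2 times lower were 2, *Elk3* and *Creb1*, against 9.76%. The kinase genes *Mapk3* and *Rps6ka1*, among the most abundant of them by FPKM, had 0 h ratios of 1.01 and 0.991. *Creb1*, whose product binds the CRE, was at 0.270 times its WT level at 0 h and had 21.6% left at 4 h in WT and 86.4% in R255K cells.

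Partners and antagonists of the AP-1, ATF and EGR factors were lower in R255K cells at 0 h by their median ratio (0.563 over 9 genes, beside 1.04 over all genes). Over 2 times lower were *Jdp2*, a repressor that pairs with Jun proteins, and *Ddit3*, a stress factor, against 9.76% of all genes. *Jdp2* passed the filter only through its WT level. Of the 9 genes 0 were over 2 times higher, against 10.0%. *Atf4*, the stress-response factor and the most abundant of them, was at 0.505, with 11.7% left at 4 h in WT and 28.2% in R255K cells. *Nab1*, a co-repressor that binds EGR proteins, had the largest ratio of the share left at 4 h (2.72). This ratio was over 1.5 for 5 of the 9 genes and under 1/1.5 for 0, against 31.7% and 6.45% of all genes.

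The BCL2 family holds the partners of the MCL1 protein. Of 10 genes past the filter 1, *Bcl2l1*, which encodes the anti-apoptotic BCL-XL, had a share left at 4 h over 1.5 times as large in R255K cells (22.8% and 36.4%), and 1, *Bbc3*, which encodes the pro-apoptotic PUMA, under 1/1.5 (24.7% and 15.9%). Over all genes 31.7% and 6.45% passed these 2 limits. *Bax* and *Bak1*, effectors of apoptosis, had 119% and 141% of their 0 h CPM left after 4 h in the WT library, and 99.2% and 94.2% in that of R255K. Shares over 100% arise because CPM is relative to the rest of a library. At 8 h 6 of the 10 had a share over 1.5 times as large in R255K cells, against 44.2% of all genes. *Bok* was the 1 gene over 2 times higher at 0 h (2.35), against 10.0%.

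Of 10 transcripts taken as long-lived references 0 were at 25% or less at 4 h in either genotype, against 13.5% (WT) and 4.15% (R255K) of all genes. Their median share at 4 h was 126% in WT and 101% in R255K cells, with *Eef1a1*, a translation factor, at 128% and 117%.

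The genes whose profile over the 6 libraries was most like the mean of the 10 immediate early genes were *Abtb2*, *Prr23a3*, *Irs2*, *B3galt4* and *Zfp513*. The root mean square difference of their centred log2 CPM from that mean was between 0.12 (*Abtb2*) and 0.16 (*Zfp513*). The 10 genes themselves lay between 0.31 (*Ier3*) and 1.01 (*Junb*) from their mean. The 5 other genes were picked as the nearest of all that passed the filter, so their smaller distances follow from that choice.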

How the data were processed

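The 10 genes, the gene lists and the folds were chosen with earlier results of these data known. All 14 samples were used. Per the labels and the study's methods, the authors discarded rRNA reads with Bowtie2 2.2.6, aligned the rest to mm10 with HISAT2, kept unique reads with Picard 2.16.0 and SAMtools 0.1.09, and called MeRIP peaks over input with MACS2. The deposited counts are unnormalized whole numbers per gene. The counting tool, annotation and strand setting were not given in the sources used here. The peak lists hold the deposited fold enrichment and −log10 q, 1 list per genotype. The exon lengths deposited with the counts were used for FPKM.

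Here levels were counts divided by the summed counts of the library. Intervals (95%) were exact for 1 count (Poisson), conditional binomial for 2 counts and conditional odds ratios for 4, and used the delta method for half-lives. Peaks were assigned to exons they overlap by at least 1 bp. Regions came from GENCODE vM21 and sequences from RefSeq's GRCm38.p6, the same build as mm10. The rule for named genes took all 10 genes, and of each list the 3 with the highest FPKM and the 2 with the largest and the 2 with the smallest ratio of the share left at 4 h, beside those past a fold, except 1 gene that is not reported here. Likeness used log2(CPM + 1). Python 3.11.15, pandas 2.3.3, scipy 1.17.1, pysam 0.24.0 and statsmodels 0.14.6 were used, and edgeR 4.0.16 for TMM factors only. Other scalings, filters, floors and overlaps were tried as alternatives.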

Additional observations from a re-analysis of the deposited data

How the results depend on the processing

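No paired analysis was possible because each genotype and time has 1 RNA-seq library and the MeRIP libraries of a genotype were merged into 1 peak list. The scaling to *Gapdh*, which had between 242 and 2357 counts in the 6 libraries, changed most. Relative to it, 3 genes were at 25% or less at 4 h in WT cells, 0 had a half-life over 1.5 times as long in R255K cells, 0 had over 1.5 times as much left at 4 h, and 9 were over 2 times higher at 0 h. The ratios of the share left at 4 h turned to 0.278 for *Jun*, 0.285 for *Jund*, 0.370 for *Atf3* and 0.380 for *Mcl1*, and the half-life ratios to 0.776 for *Jund* and 0.853 for *Mcl1*. This scaling moved the median log2 ratio over all genes from 0.06 to 1.49 for the level at 0 h. For the share left at 4 h it moved that median from 0.18 to −2.65, and scaling to 87 ribosomal protein genes moved it to 0.58. Under each scaling the ratios of the share left at 4 h of *Jund* and *Mcl1* stayed above the median of all genes. With a stricter filter (mean FPKM of 5 or more), which keeps fewer genes, 4 genes were at 25% or less at 4 h in WT and 3 in R255K cells, 2 had over 1.5 times as much left at 4 h and 1 was over 2 times higher at 0 h. The 1 gene higher at 0 h, *Egr1*, passed that filter only through its R255K level (1.66 FPKM in WT and 14.3 in R255K cells). At 8 h 2 genes had over 1.5 times as much left. With counts under 1 set to 1 in place of 3, the ratio of *Ier5* turned to 1.88. TMM factors, scaling to genes without a peak, removal of the exon GC trend, no filter, and the other decay intervals kept each count within 1.5 times. Peak counts without an R255K counterpart were 3 to 5 under other overlaps and thresholds. Of 184 values of single genes under alternatives, 124 moved by up to 1 counting SD, 53 moved by more, and 7 that had been past a fold crossed 1. Counting those not past a fold, 24 crossed 1. The 76 half-life ratios among the 184 were set against the SD of the ratio of the share left at 4 h. Their own SD was not used, so the 60 of them counted within 1 SD are so only on that scale. Depth limits *Fos*, *Jun*, *Ier3*, *Ier5* and *Atf3*, with at most 28 counts each after actinomycin D.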
